A study of Mus musculus with 24 samples.

Results

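The CC chemokines examined here were 10 mouse genes, Ccl2, Ccl3, Ccl4, Ccl5, Ccl6, Ccl7, Ccl9, Ccl12, Ccl17 and Ccl22, and their chromatin was read by ATAC-seq, in which a transposase inserts sequencing adapters into open DNA. The regions described are consensus peaks, intervals of open chromatin merged across all libraries, that overlapped the body of a gene or the 20 kb on either side of it on the mm10 build. This rule found 81 of the 184158 consensus peaks. All 81 passed the filter on low counts and were tested, together with 174193 peaks in all. Ccl5 held 15 of them, Ccl6 11, Ccl17 9 and Ccl3 8. Ccl2, Ccl4 and Ccl22 held 7 each, Ccl9 and Ccl12 held 6 each and Ccl7 held 5. A transcription start site (TSS) of a gene lay under 10 of the peaks, 6 others overlapped an exon, 1 lay in an intron, 35 lay upstream and 29 downstream. A peak is named by the distance of its middle from the TSS of its gene, with a plus sign in the direction of transcription. Of the 81 peaks, 21 lay nearer to the TSS of a gene other than these 10, which is named for most such peaks described.

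CC chemokines are small secreted proteins with a pair of adjacent cysteines near the amino end, and they draw leukocytes along a gradient by binding G protein-coupled receptors. Ccl2, Ccl7 and Ccl12 bind the receptor CCR2 and recruit monocytes, Ccl3, Ccl4, Ccl5, Ccl6 and Ccl9 act on monocytes, T cells and other leukocytes, and Ccl17 and Ccl22 bind CCR4 on T helper 2 and regulatory T cells. Macrophages are among the cells that make these proteins in the lung, and bacterial products switch on many of their genes through factors such as NF-kB, AP-1 and interferon regulatory factors.

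The 24 libraries were made from bone marrow-derived macrophages (BMDMs), and the labels put them in 4 groups of 6, unstimulated and LPS-treated cells of either genotype, WT and AhR-KO. AhR-KO cells lack the aryl hydrocarbon receptor, a transcription factor switched on by small molecules, and came from mice of the line B6.129-Ahr tm1Bra/J, whereas WT cells came from C57/B6/J mice. In the study's methods each group stands for 6 animals of a single experiment. No source used here says whether the WT animals were littermates of the AhR-KO animals, so that the genotype and the mouse line cannot be told apart. Marrow of all groups was cultured with GM-CSF (10 ng/ml) and TGF-β (2 ng/ml), which drive a phenotype resembling alveolar macrophages. LPS, a lipid-sugar compound of the outer membrane of Gram-negative bacteria that macrophages sense through TLR4, was given at 97 EU/ml on day 6 for 24 h, and the calcium ionophore A23187 followed at 5 µM for 10 min. The labels carry this treatment text on every library, and which of its steps the unstimulated cultures received is not separated there. ATAC-seq on a whole culture reads the average of its cells, so a change in the mix of cells and a change in the chromatin of each cell cannot be told apart.

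Accessibility is given in CPM, the count of read pairs in a peak per M (mega) of the normalised total of its library. The total in consensus peaks ran from 8.54 to 34.6 M read pairs per library, and the mean was 18.6 ± 5.62 M (SD, n = 6) and 22.7 ± 2.25 M in the unstimulated groups of WT and AhR-KO, and 30.6 ± 3.39 M and 25.6 ± 2.27 M in their LPS groups. The library with the lowest total was WT unstimulated replicate 5, and every count of changed peaks given below for the 10 genes together differed by at most 1 without it. The TSS peak of the targeted gene Ahr ran from 20.2 to 24.6 CPM in WT unstimulated and from 11.6 to 15.1 in AhR-KO unstimulated, and from 18.99 to 22.2 in WT LPS and 11.9 to 16.8 in AhR-KO LPS. Where this peak lies relative to the deletion is not given in the sources used here, so it shows that the 12 libraries of each genotype differed at the locus and not that the gene was lost. As markers of cell types, TSS peaks were found for 6 of 7 macrophage genes (not Spi1), 5 of 5 alveolar macrophage genes, 5 of 5 dendritic cell genes, 2 of 5 neutrophil genes (not Elane, Ly6g or Mpo), 0 of 3 T cell genes and 0 of 3 B cell genes. The sum over the alveolar macrophage genes ran from 45.8 to 57.3 CPM in WT and 60.01 to 76.1 in AhR-KO before LPS, and from 33.9 to 43.6 in WT and 38.99 to 47.7 in AhR-KO with LPS. The sum over the macrophage genes ran from 117.2 to 133.3, 136.4 to 178.8, 106.2 to 120.0 and 101.1 to 134.8 CPM in the same order, over the dendritic cell genes from 42.7 to 53.4, 52.3 to 63.6, 51.9 to 67.2 and 47.8 to 59.8, and over the neutrophil genes from 19.8 to 26.1, 23.8 to 27.7, 13.8 to 21.1 and 16.4 to 18.9. By TSS peak, AhR-KO without LPS gave 3 higher DARs among the alveolar macrophage genes, 2 higher and 1 lower among the dendritic cell genes, 1 lower among the neutrophil genes and 0 among the macrophage genes. These sums moved with genotype and with LPS, and their part in the chemokine results was not tested.

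The DNA of 8 regions on which the results turn is printed here from the mm10 assembly, read on the plus strand. Capitals mark matches to 6 short motifs searched on both strands: GCGTG, the core that AhR binds with its partner ARNT, TGANTCA for AP-1, GAGGAAGT for PU.1, TTGCNNAA for C/EBP, and, by name alone, the core of interferon response elements (ISRE) and the NF-kB motif. The first pair are the sequences before the starts of Ccl17 and Ccl22, the promoters that were more open in AhR-KO without LPS, credited to RefSeq (GRCm38.p6). The Ccl17 sequence is chr8:94810203-94810452 and holds GCGTG at position 199, counted from 1 at its left end. The Ccl22 sequence is chr8:94745434-94745589, ends where the annotated transcript begins and holds none of the motifs.
Ccl17 promoter: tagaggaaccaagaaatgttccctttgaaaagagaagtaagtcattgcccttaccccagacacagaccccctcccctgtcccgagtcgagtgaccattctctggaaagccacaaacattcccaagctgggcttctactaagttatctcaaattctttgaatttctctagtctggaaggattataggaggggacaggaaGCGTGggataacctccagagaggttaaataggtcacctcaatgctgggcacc
Ccl22 promoter: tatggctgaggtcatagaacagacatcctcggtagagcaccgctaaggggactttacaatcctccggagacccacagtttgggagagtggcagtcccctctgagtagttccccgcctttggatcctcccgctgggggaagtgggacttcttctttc

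The next 3 sequences lie in the Ccl5 locus, which held the largest log2 fold changes with LPS. The peak at -4.3 kb is shown by its middle 300 bases (chr11:83534681-83534980), with an ISRE core at position 123 and an NF-kB match at position 171. The intronic peak at +2.3 kb is shown whole (chr11:83528042-83528310, 269 bases), with AP-1 matches at positions 73 and 168. It is a tandem repeat, in which 172 of 250 bases (68.8%) equalled the base 19 positions earlier. The peak at +5.2 kb, where AhR-KO exceeded WT most after LPS, is shown by its middle 300 bases (chr11:83525216-83525515), which hold none of the motifs.
Ccl5 peak at -4.3 kb: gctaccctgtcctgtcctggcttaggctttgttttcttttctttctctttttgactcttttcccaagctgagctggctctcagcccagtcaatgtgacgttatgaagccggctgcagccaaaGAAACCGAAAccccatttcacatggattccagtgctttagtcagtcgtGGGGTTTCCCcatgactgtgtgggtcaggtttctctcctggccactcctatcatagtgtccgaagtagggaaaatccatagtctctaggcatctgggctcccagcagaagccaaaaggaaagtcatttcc
Ccl5 peak at +2.3 kb: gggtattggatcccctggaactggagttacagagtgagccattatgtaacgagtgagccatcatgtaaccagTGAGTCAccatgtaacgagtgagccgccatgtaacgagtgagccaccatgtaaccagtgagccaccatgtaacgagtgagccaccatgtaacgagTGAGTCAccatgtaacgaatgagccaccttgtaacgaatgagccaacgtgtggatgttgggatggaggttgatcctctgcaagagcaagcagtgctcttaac
Ccl5 peak at +5.2 kb: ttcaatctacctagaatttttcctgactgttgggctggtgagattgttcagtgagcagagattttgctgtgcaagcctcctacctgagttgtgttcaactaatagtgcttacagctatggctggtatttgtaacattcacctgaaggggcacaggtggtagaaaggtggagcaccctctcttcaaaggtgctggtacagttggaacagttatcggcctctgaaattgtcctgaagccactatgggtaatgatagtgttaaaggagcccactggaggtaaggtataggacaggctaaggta

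The last 3 are distal peaks of Ccl2, Ccl7 and Ccl6 that were DARs between genotypes. The Ccl2 peak at -13.9 kb was less open in AhR-KO with and without LPS, and its middle 300 bases (chr11:82021504-82021803) hold none of the motifs. The Ccl7 peak at -3.7 kb was more open in AhR-KO with LPS, and its middle 300 bases (chr11:82041850-82042149) hold an ISRE core at position 43, read on the minus strand. The Ccl6 peak at -19.2 kb was more open in AhR-KO without LPS and is shown whole (chr11:83612183-83612401, 219 bases), with a C/EBP match at position 166.
Ccl2 peak at -13.9 kb: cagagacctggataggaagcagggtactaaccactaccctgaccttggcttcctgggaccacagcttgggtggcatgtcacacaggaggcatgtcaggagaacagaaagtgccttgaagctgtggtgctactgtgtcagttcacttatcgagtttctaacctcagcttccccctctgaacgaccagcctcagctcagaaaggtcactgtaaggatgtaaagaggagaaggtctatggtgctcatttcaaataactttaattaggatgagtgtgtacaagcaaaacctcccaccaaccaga
Ccl7 peak at -3.7 kb: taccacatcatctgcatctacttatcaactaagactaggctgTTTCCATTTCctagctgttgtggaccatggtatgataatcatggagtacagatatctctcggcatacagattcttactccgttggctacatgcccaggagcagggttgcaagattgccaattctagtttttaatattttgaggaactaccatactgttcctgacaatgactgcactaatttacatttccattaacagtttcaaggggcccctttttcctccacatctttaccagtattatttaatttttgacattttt
Ccl6 peak at -19.2 kb: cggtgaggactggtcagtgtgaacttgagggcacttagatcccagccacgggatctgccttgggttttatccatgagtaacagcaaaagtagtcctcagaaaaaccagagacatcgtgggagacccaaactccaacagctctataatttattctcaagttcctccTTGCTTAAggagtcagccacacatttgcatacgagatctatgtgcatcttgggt

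LPS opened more CC chemokine peaks than it closed, in both genotypes, and most of the peaks that differed between genotypes were higher in AhR-KO. A differentially accessible region (DAR) had to change by at least 1.5-fold with an adjusted p, in edgeR's quasi-likelihood test, no higher than 0.05. With LPS against unstimulated in WT, 30 of the 81 peaks were higher DARs and 13 lower, while 25.4% of all tested peaks were higher DARs and 21.6% lower (47.0% in either direction). In AhR-KO, 34 were higher and 17 lower DARs, against 27.3% and 21.5% of all tested peaks (48.8% in either direction). LPS made 28 peaks higher DARs and 11 lower DARs in both genotypes, 4 were DARs in WT alone and 12 in AhR-KO alone, 26 in neither, and 0 moved in opposite directions. Being a DAR in one genotype alone is not a test of a difference between the genotypes, which the interaction below gives.

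Between genotypes, 15 of the 81 peaks were higher DARs and 2 lower in AhR-KO without LPS, where 9.95% of all tested peaks were higher and 12.6% lower (22.6% in either direction). With LPS, 16 were higher and 1 lower, against 13.4% and 13.1% of all tested peaks (26.5% in either direction). In either direction, 17 of 81 peaks (21%) were DARs in each of these comparisons, a share below that of all tested peaks. By peak, 3 were DARs in the same direction with and without LPS, 14 without LPS alone, 14 with LPS alone and 50 in neither. In 17 of the 81 peaks none of these 4 comparisons gave a DAR. Among the 21 peaks nearer the TSS of another gene, AhR-KO gave 3 higher DARs without LPS (14.3%) and 9 with LPS (42.9%). Of all tested peaks, 9.95% and 13.4% were higher, and 0 of the 21 were lower in either treatment.

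The median log2 fold change of the 81 peaks was 0.25 between genotypes (AhR-KO against WT) in unstimulated cells and 0.13 in LPS-treated cells, beside -0.02 and 0.02 over all tested peaks. The median effect of LPS was 0.34 on WT cells and 0.29 on AhR-KO cells, beside -0.01 and 0.05. The interaction, the genotype effect with LPS minus that without, made 8 peaks lower and 3 higher DARs, against 4.58% and 5.83% of all tested peaks (10.4% in either direction), and its median was -0.11 beside 0.04.

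The libraries of compared groups often did not overlap. All 6 AhR-KO libraries were above all 6 WT libraries at 16 peaks and below them at 3 without LPS (9.78% and 11.3% of all tested peaks, 21% together), and at 17 and 1 with LPS (10.6% and 8.96%, 19.6% together). All 6 LPS libraries were above all 6 unstimulated libraries at 29 peaks and below them at 13 in WT (20.5% and 18.3%, 38.7% together), and at 34 and 17 in AhR-KO (24.9% and 20.6%, 45.6% together).

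**Figure D1:**
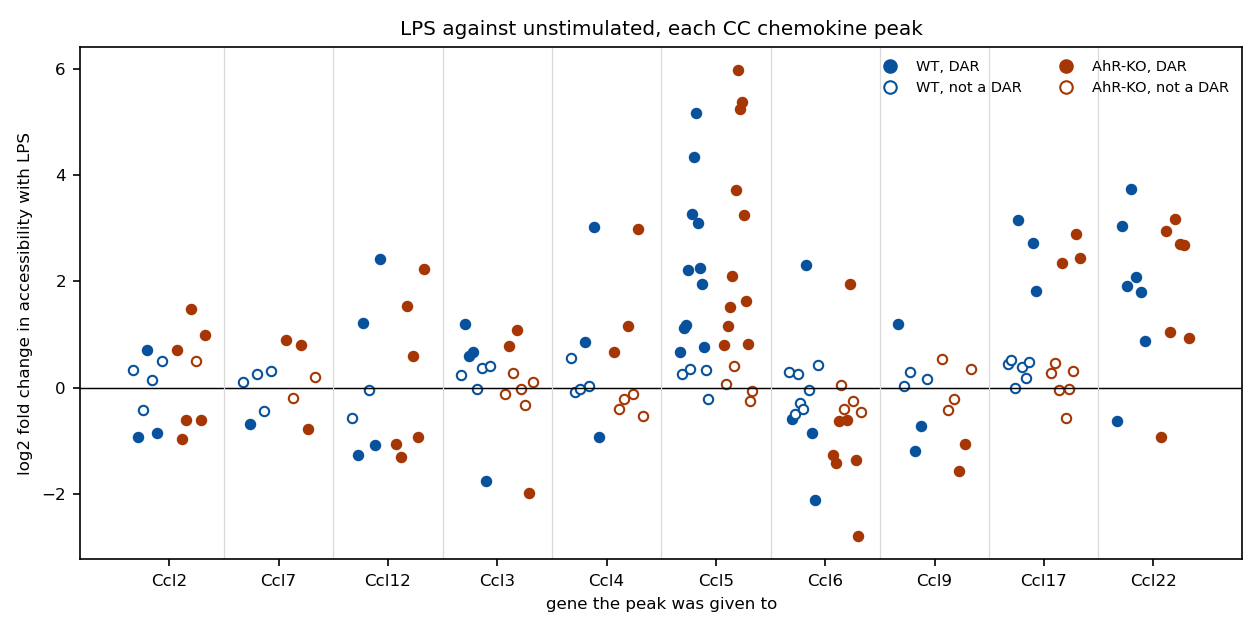
Log2 fold change in accessibility with LPS (y axis) of each of the 81 CC chemokine peaks, by the gene it was given to (x axis). Blue points are WT, brown points AhR-KO, and filled points are DARs. The highest points, up to 5.97 in AhR-KO, belong to Ccl5, while Ccl6 has more DARs below 0 than above it.

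**Figure D2:**
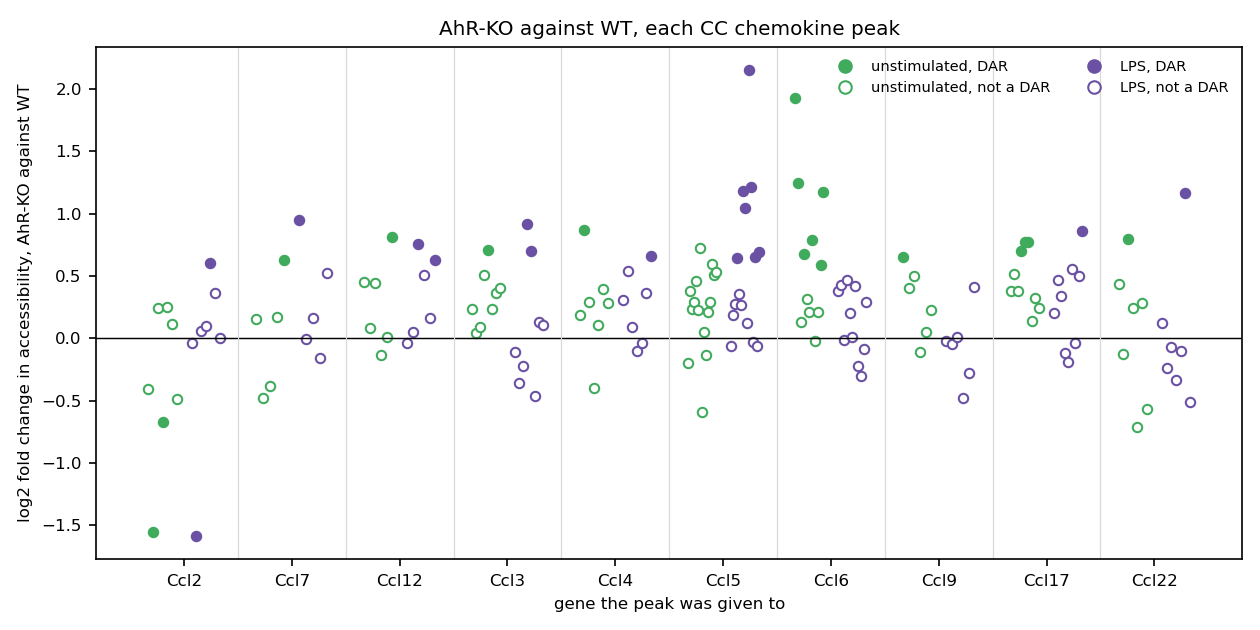
Log2 fold change in accessibility of AhR-KO against WT (y axis) of each of the 81 peaks, by gene (x axis). Green points are unstimulated cultures, purple points LPS cultures, and filled points are DARs. Of the filled green points 6 belong to Ccl6 and 3 to Ccl17, of the filled purple points 7 belong to Ccl5, and the DARs below 0 in either treatment belong to Ccl2.

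The CCR2 ligands Ccl2, Ccl7 and Ccl12, which recruit monocytes, lie in 1 cluster on chromosome 11 (Ccl2 at 82035571 to 82037453, Ccl7 at 82045712 to 82047525, Ccl12 at 82101845 to 82103400, all on the plus strand). The promoters of Ccl2, Ccl7 and Ccl12 were lower with LPS in WT, and those of Ccl2 and Ccl12 also in AhR-KO. Over their 18 peaks, LPS gave 3 higher and 5 lower DARs in WT and 8 higher and 7 lower in AhR-KO. In either direction these were 44.4% and 83.3%, beside 47.0% and 48.8% of all tested peaks. AhR-KO was higher at 2 and lower at 2 without LPS (22.2%, beside 22.6% of all tested peaks). With LPS it was higher at 4 and lower at 1 (27.8%, beside 26.5%).

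At the Ccl2 TSS peak (82035043 to 82035816), accessibility ran from 20.4 to 24.2 CPM with a median of 22.98 in WT unstimulated, and from 11.9 to 12.9 with a median of 12.6 in WT LPS. In AhR-KO it ran from 21.2 to 26.8 (median 24.8) without LPS and from 11.4 to 20.9 (median 16.1) with LPS. The LPS groups lay below the unstimulated groups with no overlap in both genotypes, and the AhR-KO LPS libraries were spread far wider than the WT LPS libraries. The log2 fold change with LPS was -0.86 in WT (SE 0.0857, adjusted p 6.64e-11) and -0.61 in AhR-KO (SE 0.0838, adjusted p 6.91e-08). The latter fell short of 1.5-fold without AhR-KO unstimulated replicate 1 (-0.58), AhR-KO LPS replicate 3 (-0.53) or AhR-KO LPS replicate 4 (-0.58). Genotype gave no DAR at this promoter (0.11 before LPS, adjusted p 0.308, and 0.36 after it, adjusted p 0.000648).

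Upstream of Ccl2, the peak at -13.9 kb (82021448 to 82021858) was the one peak of the 81 that was a lower DAR of AhR-KO in both treatments. It ran from 4.65 to 9.24 CPM (median 7.54) in WT unstimulated, 1.84 to 2.98 (2.48) in AhR-KO unstimulated, 2.70 to 5.06 (3.93) in WT LPS and 0.946 to 1.58 (1.30) in AhR-KO LPS. AhR-KO lay below WT with no overlap in either treatment, with a log2 fold change of -1.55 before LPS (SE 0.165, adjusted p 2.38e-09) and one of -1.58 after it (SE 0.179, adjusted p 8.75e-09). With LPS it fell by 0.93 in WT and fell by 0.96 in AhR-KO, and the interaction was -0.03 (SE 0.233, adjusted p 0.949). A broad peak was called there in 5 of 6 WT unstimulated and 3 of 6 WT LPS libraries, and in 0 of 12 AhR-KO libraries.

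Other peaks around Ccl2 went separate ways. The small peak at -5.3 kb was the other lower DAR of AhR-KO without LPS (-0.67, adjusted p 0.0167), and rose with LPS by 0.70 in WT and 1.48 in AhR-KO. Its call in AhR-KO without LPS was lost without AhR-KO unstimulated replicate 3 (-0.56). At -2.6 kb, AhR-KO LPS ran from 4.65 to 6.03 CPM and WT LPS from 3.06 to 3.69, with no overlap (0.60, SE 0.108, adjusted p 1.96e-05), although this was under 1.5-fold without WT LPS replicate 4 (0.57) or AhR-KO LPS replicate 1 (0.56), and in a fit of the LPS libraries alone (0.58). At -19.6 kb and at +3.9 kb (nearest TSS of the gene Gm17268), LPS gave a higher DAR in AhR-KO only (0.71 and 0.99). The values in WT were 0.34 and 0.51. The interactions were 0.37 (adjusted p 0.00184) and 0.48 (adjusted p 0.0388), both under 1.5-fold. The peak at -12.3 kb was a lower DAR with LPS in AhR-KO (-0.60, and -0.42 in WT), under 1.5-fold without AhR-KO unstimulated replicate 5 or AhR-KO LPS replicates 2 or 3 (-0.56 to -0.58).

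The Ccl7 TSS peak (82045389 to 82045763) was weak, from 1.06 to 1.84 CPM (median 1.32) in WT unstimulated, 0.866 to 1.14 (0.978) in AhR-KO unstimulated, 0.779 to 1.06 (0.809) in WT LPS and 0.689 to 0.990 (0.864) in AhR-KO LPS. The LPS groups overlapped those of AhR-KO unstimulated and each other, and the 5 highest libraries were WT unstimulated. LPS lowered it in WT (-0.67, SE 0.163, adjusted p 0.000494), although not past 1.5-fold without WT unstimulated replicate 4 (-0.56), and no DAR was called in AhR-KO (-0.20, adjusted p 0.314).

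The Ccl7 peak at -3.7 kb (82041666 to 82042333, nearest TSS Gm17268) separated AhR-KO LPS from the rest. It ran from 2.44 to 3.79 CPM (median 3.49) in WT unstimulated, 3.17 to 4.24 (3.71) in AhR-KO unstimulated and 2.93 to 4.88 (3.43) in WT LPS, and from 4.79 to 8.18 (7.50) in AhR-KO LPS. With LPS, AhR-KO was higher by 0.95 (SE 0.131, adjusted p 2.62e-07) with a narrow overlap of the groups. LPS raised it in AhR-KO (0.89, adjusted p 3.48e-07) and not in WT (0.10, adjusted p 0.549), and the interaction was 0.79 (SE 0.197, adjusted p 0.00559). At +21.4 kb (nearest TSS of Ccl11, which encodes the eosinophil attractant eotaxin), AhR-KO was above WT with no overlap in both treatments, from 18.5 to 23.7 CPM against 11.4 to 14.7 without LPS and from 23.1 to 25.9 against 14.9 to 18.7 with LPS. The log2 fold changes were 0.63 (a DAR, under 1.5-fold at 0.58 without WT unstimulated replicate 1) and 0.53 (adjusted p 6.11e-08, under 1.5-fold).

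At the Ccl12 TSS peak (82100070 to 82102130), accessibility ran from 27.3 to 33.4 CPM (median 28.8) in WT unstimulated and 24.7 to 33.05 (31.3) in AhR-KO unstimulated, and fell to 12.7 to 14.7 (14.4) in WT LPS and 12.4 to 17.9 (16.02) in AhR-KO LPS. No LPS library reached an unstimulated one. The log2 fold change with LPS was -1.08 in WT (SE 0.0758, adjusted p 6.48e-15) and -0.93 in AhR-KO (SE 0.0751, adjusted p 1.96e-13), and AhR-KO against WT gave 0.01 before LPS (SE 0.0738, adjusted p 0.921) and 0.17 after it (SE 0.0765, adjusted p 0.0734). The peak at -13.8 kb was also a lower DAR with LPS, at -1.27 in WT and -1.31 in AhR-KO.

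Downstream of Ccl12, the peak at +14.4 kb (82115415 to 82117173), nearest the TSS of Ccl8, another CC chemokine, was among the family's few that differed by genotype in both treatments. It ran from 0.462 to 0.785 CPM (median 0.717) in WT unstimulated, 0.811 to 1.45 (1.21) in AhR-KO unstimulated, 2.76 to 4.62 (3.50) in WT LPS and 4.23 to 8.15 (5.17) in AhR-KO LPS. The genotypes did not overlap without LPS and did so narrowly with it. The log2 fold change of AhR-KO against WT was 0.82 before LPS (SE 0.248, adjusted p 0.00814) and 0.63 after it (SE 0.152, adjusted p 0.000929), the second under 1.5-fold without WT LPS replicate 1 (0.56), 2 (0.57) or 6 (0.58) or AhR-KO LPS replicate 4 (0.48). LPS raised it by 2.42 in WT and 2.23 in AhR-KO. At -11.9 kb, AhR-KO was higher with LPS (0.76, adjusted p 0.000555), at 1.60 to 2.12 CPM against 0.749 to 1.37, with no overlap.

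Ccl3 and Ccl4, which attract monocytes and T cells, are neighbours on chromosome 11 (Ccl3 at 83647844 to 83649355 on the minus strand, Ccl4 at 83662584 to 83664683 on the plus strand). The Ccl3 promoter was open before LPS and gave no DAR, whereas the Ccl4 promoter and a peak behind it opened. At the Ccl3 TSS peak (83648199 to 83649993) the 4 groups ran from 18.6 to 23.9, 19.5 to 29.1, 20.2 to 27.5 and 19.5 to 27.6 CPM, in the order of WT and AhR-KO before LPS and then WT and AhR-KO with LPS. All groups overlapped, and the log2 fold changes of the 4 pairwise comparisons lay between -0.11 and 0.24, with adjusted p from 0.0357 to 0.385.

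At the Ccl4 TSS peak (83662262 to 83662808), accessibility ran from 3.96 to 4.99 CPM (median 4.51) in WT unstimulated, 2.69 to 4.196 (3.23) in AhR-KO unstimulated, 6.94 to 9.69 (8.24) in WT LPS and 5.06 to 9.61 (7.72) in AhR-KO LPS. The LPS libraries lay above the unstimulated ones in both genotypes, by 0.86 in WT (SE 0.123, adjusted p 1.63e-07) and 1.16 in AhR-KO (SE 0.126, adjusted p 3.24e-10). Genotype gave no DAR (-0.39 and -0.10). The larger response lay at +3.2 kb (83665356 to 83666206), from 0.644 to 1.18 CPM in WT unstimulated and 0.966 to 1.48 in AhR-KO unstimulated to 5.48 to 10.3 in WT LPS and 8.31 to 10.99 in AhR-KO LPS. That was a log2 fold change of 3.02 in WT (SE 0.161, adjusted p 3.19e-18) and 2.99 in AhR-KO (SE 0.146, adjusted p 1.32e-19). With LPS, AhR-KO was higher there by 0.36 (adjusted p 0.0103), under 1.5-fold.

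Genotype differences at these genes were distal. The Ccl4 peak at -5.1 kb (83657170 to 83657809) ran from 1.81 to 3.72 CPM in WT and 4.48 to 6.40 in AhR-KO without LPS, with no overlap, and from 2.07 to 3.19 and 3.27 to 4.52 with LPS, again with no overlap. The log2 fold change of AhR-KO against WT was 0.87 before LPS (SE 0.140, adjusted p 4.31e-06) and 0.54 after it (SE 0.134, adjusted p 0.00102), of which the first was a DAR and the second passed 1.5-fold without WT LPS replicate 3 (0.61) or AhR-KO LPS replicate 2 (0.59). The peaks described behind Ccl3 all lay nearest the TSS of Rpl9-ps1. The one at +14.3 kb was higher in AhR-KO with LPS (0.92, adjusted p 0.000134) and rose with LPS (0.67 in WT and 1.09 in AhR-KO). The weak peak at +14.7 kb was a higher DAR in both treatments (0.71 and 0.70), although the call without LPS was lost without any of 8 libraries, with adjusted p from 0.0513 to 0.11. The peak at +17.9 kb was lower with LPS, at -1.75 in WT and -1.99 in AhR-KO, from a lowest unstimulated value of 1.49 CPM to a highest LPS value of 1.18.

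Ccl5 (RANTES, an attractant of T cells and monocytes) lies on the minus strand of chromosome 11 at 83525778 to 83530518. Its chromatin held little accessibility before LPS from -1.8 kb to +8.2 kb, opened with LPS in both genotypes, and opened further in AhR-KO than in WT at the promoter and beyond the end of the gene. Of its 15 peaks, 11 (73.3%) were higher and 0 lower DARs with LPS in each genotype. Of all tested peaks, 25.4% were higher in WT and 27.3% in AhR-KO. AhR-KO gave 0 DARs without LPS, beside 22.6% of all tested peaks. With LPS it gave 7 higher (46.7%) and 0 lower DARs, beside 13.4% and 13.1%. All 6 AhR-KO LPS libraries were above all 6 WT LPS libraries at 7 peaks, beside 10.6% of all tested peaks. Beside the 0 DARs of edgeR without LPS, 8 peaks were higher and 1 lower in AhR-KO at an unadjusted p under 0.05. DESeq2 called 1 higher DAR there, at -1.8 kb (0.80, adjusted p 0.0451), and another scaling of the libraries 1, at +24.7 kb (0.60, adjusted p 0.0357).

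At the Ccl5 TSS peak (83530335 to 83530833), 35 read pairs in all 6 WT unstimulated libraries and 28 in all 6 AhR-KO unstimulated libraries were counted. Accessibility ran from 0.198 to 0.436 CPM (median 0.310) in WT unstimulated and from 0 to 0.339 (0.206) in AhR-KO unstimulated, and rose to 3.33 to 8.70 (6.30) in WT LPS and 11.6 to 15.2 (13.3) in AhR-KO LPS. Every AhR-KO LPS library lay above every WT LPS library, and every LPS library above every unstimulated one. The log2 fold change with LPS was 4.33 in WT (SE 0.265, adjusted p 5.98e-15) and 5.97 in AhR-KO (SE 0.257, adjusted p 5.78e-19). With LPS, AhR-KO was higher by 1.05 (SE 0.153, adjusted p 1.67e-06). The interaction was 1.64 (SE 0.515, adjusted p 0.0289), and its adjusted p was 0.0792 without WT unstimulated replicate 2.

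The widest gap between genotypes at Ccl5 lay at +5.2 kb (83523296 to 83527434, 4139 bases), a peak that covers the end of the gene and the sequence behind it and whose middle is nearer the TSS of Heatr9. It ran from 1.32 to 2.00 CPM (median 1.55) in WT unstimulated and 0.890 to 2.43 (1.56) in AhR-KO unstimulated. With LPS the WT libraries ran from 7.52 to 22.1 (13.1) and the AhR-KO libraries from 54.4 to 75.2 (59.3), so that the lowest AhR-KO library held more than the highest WT library by far. AhR-KO was above WT by 2.15 on the log2 scale with LPS (SE 0.169, adjusted p 7.87e-10), the value without LPS was -0.13 (adjusted p 0.795), and the interaction was 2.28 (SE 0.385, adjusted p 0.000356). The response to LPS was 3.10 in WT (SE 0.245) and 5.39 in AhR-KO (SE 0.227). A called broad peak overlapped it in 6 of 6 libraries of both LPS groups, in 1 of 6 WT unstimulated and in 0 of 6 AhR-KO unstimulated libraries. The called peaks covered the greater part of the interval in 6 of 6 AhR-KO LPS libraries and in 0 of 6 WT LPS libraries. The interval was merged from the called peaks of all libraries, so its width is not independent of them, and this coverage is a description.

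Between these 2 Ccl5 peaks, the intronic repeat at +2.3 kb responded to LPS without a genotype difference. It ran from 0.0883 to 0.349 CPM (median 0.115) in WT unstimulated and 0.0869 to 0.216 (0.129) in AhR-KO unstimulated, and from 3.78 to 6.09 (5.24) in WT LPS and 4.40 to 8.06 (5.14) in AhR-KO LPS. The LPS response was 5.16 in WT (SE 0.245, adjusted p 1.16e-19) and 5.24 in AhR-KO (SE 0.230, adjusted p 5.52e-21), and AhR-KO against WT with LPS was 0.12 (SE 0.131, adjusted p 0.479). A peak was called in all 6 WT LPS libraries but in 1 of 6 AhR-KO LPS libraries, although the counts of the groups overlapped. How reads that map to several places were treated is not given in the sources used here, which bears on a repeat of this kind.

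The remaining higher DARs of AhR-KO with LPS lay on both sides of Ccl5. The peak at -1.8 kb, which holds 2 NF-kB matches, ran from 2.18 to 3.49 CPM (median 2.68) in WT LPS and 5.38 to 6.64 (6.12) in AhR-KO LPS, a log2 gap of 1.18 (SE 0.152, adjusted p 7.07e-08) with no overlap. The peak at +8.2 kb (nearest TSS Heatr9) ran from 0.746 to 1.57 (1.17) and from 1.95 to 3.17 (3.01), a gap of 1.21 (SE 0.167, adjusted p 2.37e-07). A peak was called there in 1 of 6 WT LPS libraries and in 0 of 6 AhR-KO LPS libraries. At -6.0 kb the gap was 0.64 (adjusted p 2.27e-06), from 5.60 to 7.10 CPM in WT LPS to 8.71 to 11.2 in AhR-KO LPS. The peaks at +17.6 kb (0.66) and +24.7 kb (0.69), both nearer the TSS of another gene than that of Ccl5, were also DARs. The first was under 1.5-fold without WT LPS replicate 1 (0.54) or 3 (0.56) or AhR-KO LPS replicate 1 (0.54). The second was under 1.5-fold without AhR-KO LPS replicate 4 (0.56).

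The most open responsive peak upstream of Ccl5, at -4.3 kb (83534365 to 83535295), was already open before LPS. It ran from 3.26 to 4.37 CPM (median 3.92) in WT unstimulated, 4.61 to 6.41 (5.39) in AhR-KO unstimulated, 14.8 to 19.8 (18.01) in WT LPS and 19.6 to 26.2 (22.4) in AhR-KO LPS. Unstimulated AhR-KO libraries lay above the WT ones with no overlap, and the LPS groups overlapped at their edge. The LPS response was 2.21 in WT (SE 0.0984, adjusted p 1.81e-20) and 2.11 in AhR-KO (SE 0.0915, adjusted p 4.09e-21), and AhR-KO was higher by 0.46 without and 0.36 with LPS (adjusted p 0.00082 and 0.000424), both under 1.5-fold. LPS also raised the peaks at -10.6 kb (1.12 and 1.16), -19.7 kb (0.67 and 0.80) and +13.2 kb (1.96 and 1.63) in WT and AhR-KO. The peak at +13.2 kb lay nearer the TSS of another gene than that of Ccl5.

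**Figure D3:**
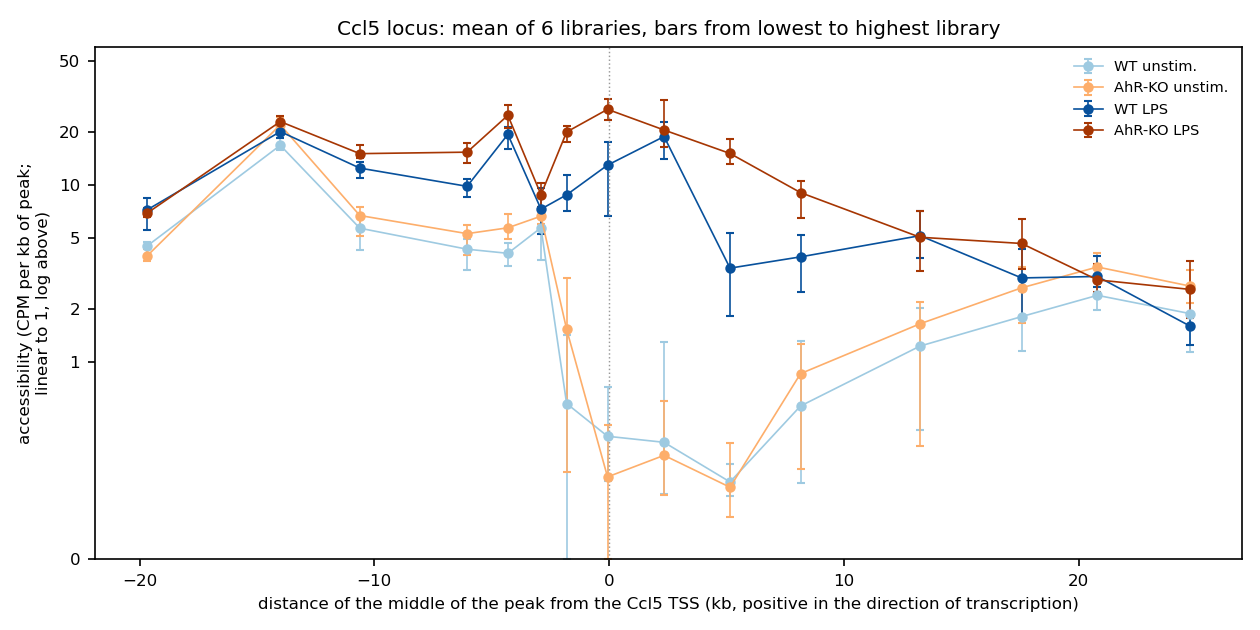
Mean accessibility of the 15 Ccl5 peaks in CPM per kb of peak (y axis, linear up to 1 and logarithmic above) against the distance of the middle of the peak from the Ccl5 TSS in kb (x axis). Bars run from the lowest to the highest of 6 libraries. The LPS groups lie above the unstimulated groups from -10.6 to +13.2 kb except near -2.9 kb, and AhR-KO LPS (brown) lies clear of WT LPS (dark blue) at the TSS and at -6.0, -1.8, +5.2 and +8.2 kb, among others.

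Ccl6 and Ccl9, which act on myeloid cells through CCR1 and are abundant in macrophages, lie on the minus strand of chromosome 11 (Ccl6 at 83587882 to 83593087, Ccl9 at 83572919 to 83578636). Around Ccl6, most DARs with LPS were lower, and genotype DARs were found before LPS and not after it. Of its 11 peaks, LPS gave 3 lower and 1 higher DARs in WT and 6 lower and 1 higher in AhR-KO. The lower share was 27.3% in WT and 54.5% in AhR-KO, beside 21.6% and 21.5% of all tested peaks. The higher share was 9.09% in each, beside 25.4% and 27.3%. Without LPS AhR-KO gave 6 higher DARs (54.5%, beside 9.95% of all tested peaks), and with LPS 0 DARs, beside 26.5%. The fitted interaction was below 0 at all 11 peaks (median -0.36), while 93583 of the 174193 tested peaks were above 0. It made 3 of the 11 lower DARs (27.3%), beside 4.58% of all tested peaks. Beside the 0 DARs of edgeR with LPS, 4 peaks were higher and 2 lower in AhR-KO at an unadjusted p under 0.05, and DESeq2 also gave 0 DARs.

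At the Ccl6 TSS peak (83592549 to 83593856), accessibility ran from 13.9 to 15.2 CPM (median 15.1) in WT unstimulated and 14.97 to 18.97 (17.9) in AhR-KO unstimulated. With LPS it ran from 6.96 to 9.97 (8.16) in WT and 5.60 to 8.14 (6.497) in AhR-KO. The LPS libraries lay below all unstimulated ones, by -0.85 in WT (SE 0.0931, adjusted p 5.82e-10) and -1.36 in AhR-KO (SE 0.0941, adjusted p 2.42e-15). The interaction of -0.51 (adjusted p 0.0068) was under 1.5-fold. The peak at +6.2 kb (83585721 to 83588001), over the end of the gene, fell further, from 17.04 to 25.3 CPM to 3.26 to 6.71 in WT (-2.12, adjusted p 1.51e-07) and from 17.1 to 52.6 to 3.07 to 6.31 in AhR-KO (-2.79, adjusted p 1.73e-09). Its genotype call without LPS (0.59, adjusted p 0.0415) was lost without any of 7 libraries and in the fit with a replicate block (0.54, adjusted p 0.0635).

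The Ccl6 peak at -19.2 kb had the largest log2 fold change between genotypes of the 81 peaks without LPS. It ran from 0.530 to 0.941 CPM (median 0.731) in WT unstimulated and from 1.89 to 3.50 (2.79) in AhR-KO unstimulated, and from 0.666 to 1.14 (0.885) in WT LPS and 0.722 to 1.79 (1.08) in AhR-KO LPS. The unstimulated AhR-KO libraries stood above every other library, while the other 3 groups overlapped. The log2 fold change of AhR-KO against WT was 1.93 before LPS (SE 0.208, adjusted p 2.06e-09) and 0.38 after it (adjusted p 0.126), the interaction was -1.55 (SE 0.292, adjusted p 0.000374), and LPS lowered it in AhR-KO (-1.26, adjusted p 1.57e-07). These are low counts: the 6 WT unstimulated libraries held 80 read pairs there and the 6 AhR-KO unstimulated libraries 371, and a peak was called in 2 of 24 libraries, both AhR-KO unstimulated.

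A similar order was seen nearby. At -18.0 kb the medians were 2.32 CPM in WT and 5.43 in AhR-KO before LPS, and 1.502 in WT and 2.03 in AhR-KO with LPS, with no overlap of the genotypes before LPS (1.25, SE 0.170, adjusted p 2.59e-07) and an interaction of -0.82 (adjusted p 0.0219, and 0.0509 without WT LPS replicate 6). At +9.7 kb (83583213 to 83583624, nearest TSS Ccl9) they were 4.45, 9.57, 5.89 and 7.17 CPM in the same order, with no overlap before LPS (1.17, SE 0.123, adjusted p 1.25e-09) and an interaction of -0.88 (adjusted p 0.000442). The peaks at -10.6 kb (0.68, adjusted p 0.00104) and -4.9 kb (0.79, adjusted p 0.00321) were the remaining higher DARs of unstimulated AhR-KO. The latter was the one Ccl6 peak that LPS opened, from 0.460 to 1.18 CPM to 2.996 to 5.30 in WT (2.31, adjusted p 2.57e-13) and from 0.957 to 1.67 to 4.26 to 6.23 in AhR-KO (1.95, adjusted p 3.14e-13).

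The Ccl9 TSS peak (83577029 to 83578702) gave no DAR. It ran from 13.02 to 15.6 CPM in WT and 16.8 to 21.99 in AhR-KO before LPS, and from 12.6 to 16.5 in WT and 12.9 to 15.96 in AhR-KO with LPS, so that unstimulated AhR-KO lay above the other groups (0.41 against WT, adjusted p 9.49e-05, under 1.5-fold). The peak at -2.4 kb (83580691 to 83581405) had medians of 5.84, 9.68, 14.4 and 13.3 CPM in the same order. There AhR-KO exceeded WT without LPS (0.65, SE 0.0963, adjusted p 1.02e-06) with no overlap and not with LPS (-0.02). LPS raised this peak in WT (1.21, adjusted p 8.33e-14). In AhR-KO it rose from 8.21 to 10.5 CPM to 12.1 to 16.04 with no overlap (0.53, under 1.5-fold). The interaction was -0.68 (SE 0.128, adjusted p 0.000383). Downstream, LPS lowered the peaks at +18 kb (-0.73 in WT and -1.06 in AhR-KO) and +16.2 kb (-1.19 and -1.56).

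The CCR4 ligands Ccl17 and Ccl22, attractants of T helper 2 cells that are typical of dendritic cells and of alternatively activated macrophages, lie on the plus strand of chromosome 8 (Ccl17 at 94810453 to 94812036, Ccl22 at 94745590 to 94751699). Both promoters were more open in AhR-KO than in WT without LPS and gave no genotype DAR with LPS. Of their 16 peaks, LPS gave 9 higher and 1 lower DARs in each genotype, AhR-KO gave 4 higher and 0 lower without LPS and 2 higher and 0 lower with LPS, and the interaction gave 3 lower and 0 higher. Without LPS the sum over the dendritic cell markers ran from 52.3 to 63.6 CPM in AhR-KO and from 42.7 to 53.4 CPM in WT, with a narrow overlap, but its members did not move together. Itgax (15.8 to 18.05 CPM in WT and 24.03 to 31.04 in AhR-KO) and the weaker of the 2 Zbtb46 TSS peaks were higher DARs, Flt3 was a lower DAR (5.93 to 12.1 CPM in WT and 2.96 to 4.57 in AhR-KO), and Ccr7 gave -0.82 (adjusted p 0.109). The part of these cells in the results was not tested.

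At the Ccl22 TSS peak (94745191 to 94746334), accessibility ran from 3.14 to 4.24 CPM (median 4.01) in WT unstimulated, 6.06 to 7.86 (6.62) in AhR-KO unstimulated, 9.10 to 20.04 (14.4) in WT LPS and 11.96 to 16.2 (14.3) in AhR-KO LPS. Unstimulated AhR-KO lay above WT with no overlap, and the AhR-KO LPS libraries fell within the range of WT LPS, which was the widest of the 4. AhR-KO against WT was 0.79 before LPS (SE 0.150, adjusted p 7.32e-05) and -0.07 after it (adjusted p 0.663), and the interaction was -0.87 (SE 0.193, adjusted p 0.00247). LPS raised it by 1.91 in WT (SE 0.142, adjusted p 2.95e-13) and 1.05 in AhR-KO (SE 0.130, adjusted p 1.94e-08). The lowest WT LPS libraries here were replicates 3 (9.10 CPM) and 5 (11.97 CPM). The same replicates were the lowest of WT LPS at the Ccl17 TSS peak (8.35 and 10.83) and at Ccl22 +6.5 kb (5.43 and 7.85).

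Peaks around the Ccl22 promoter also responded to LPS in both genotypes. The peak at -5.6 kb (94739675 to 94740282), with an NF-kB and a GCGTG match, rose from 0.349 to 0.872 CPM to 3.47 to 7.46 in WT (3.05, SE 0.205, adjusted p 3.96e-15) and from 0.439 to 0.890 to 3.58 to 6.05 in AhR-KO (2.94, SE 0.203, adjusted p 4.24e-15), with an interaction of -0.11 (SE 0.322, adjusted p 0.866). The peak at +6.5 kb over the last exon rose by 3.75 in WT and 3.17 in AhR-KO with a wide spread, from 5.43 to 19.4 CPM in WT LPS and 5.01 to 20.6 in AhR-KO LPS. The peak at -10.9 kb was the one lower DAR with LPS (-0.62 in WT, under 1.5-fold without WT unstimulated replicate 3 or WT LPS replicate 3 at -0.56 and -0.55, and -0.93 in AhR-KO). The weak peak at +10.9 kb was the only Ccl22 peak higher in AhR-KO with LPS (1.17, SE 0.276, adjusted p 0.000712), at 0.436 to 1.40 CPM against 0.266 to 0.587.

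At the Ccl17 TSS peak (94809931 to 94810779), accessibility ran from 8.26 to 15.2 CPM (median 11.04) in WT unstimulated, 14.2 to 23.1 (19.6) in AhR-KO unstimulated, 8.35 to 18.9 (16.9) in WT LPS and 10.2 to 15.2 (13.4) in AhR-KO LPS. All groups overlapped, unstimulated AhR-KO being the highest. AhR-KO against WT was 0.77 before LPS (SE 0.185, adjusted p 0.00179) and -0.19 after it (adjusted p 0.413), and the interaction was -0.96 (SE 0.257, adjusted p 0.0133). LPS gave no DAR at this promoter (0.39 in WT, adjusted p 0.0725, and -0.57 in AhR-KO, adjusted p 0.00691), and in AhR-KO DESeq2 called a lower DAR (-0.61, adjusted p 0.00243).

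Around Ccl17, the peak at +2.6 kb (94811648 to 94814490) was higher in AhR-KO without LPS, from 20.8 to 31.7 CPM against 14.5 to 17.7 with no overlap (0.77, SE 0.102, adjusted p 3.07e-07). With LPS it was 0.56 (adjusted p 2.01e-05), which passed 1.5-fold without WT LPS replicate 2 (0.60) or AhR-KO LPS replicate 4 (0.61). The peaks at -8.2 kb (0.51 and 0.47, adjusted p 4.62e-08 and 7.07e-08) and -6.3 kb (0.38 and 0.34, adjusted p 1.2e-05 and 3.82e-05) were also above WT with no overlap in both treatments, under 1.5-fold. LPS opened the peak at -2.4 kb (94807532 to 94808533) from 0.706 to 1.65 CPM to 7.61 to 15.1 in WT (3.16, SE 0.194, adjusted p 7.39e-15) and from 1.22 to 2.63 to 8.43 to 13.3 in AhR-KO (2.35, SE 0.174, adjusted p 3.88e-13). AhR-KO was higher there without LPS (0.70, adjusted p 0.0162), which was lost without WT unstimulated replicate 3 (0.55, adjusted p 0.0577), and the interaction (-0.82, adjusted p 0.04) was lost without any of 14 libraries. Peaks at +14.8 kb (2.72 and 2.90) and +16.1 kb (1.83 and 2.45), both nearest the TSS of Ciapin1, also rose with LPS, and the latter was higher in AhR-KO with LPS (0.86, SE 0.157, adjusted p 2.37e-05) with no overlap.

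**Figure D4:**
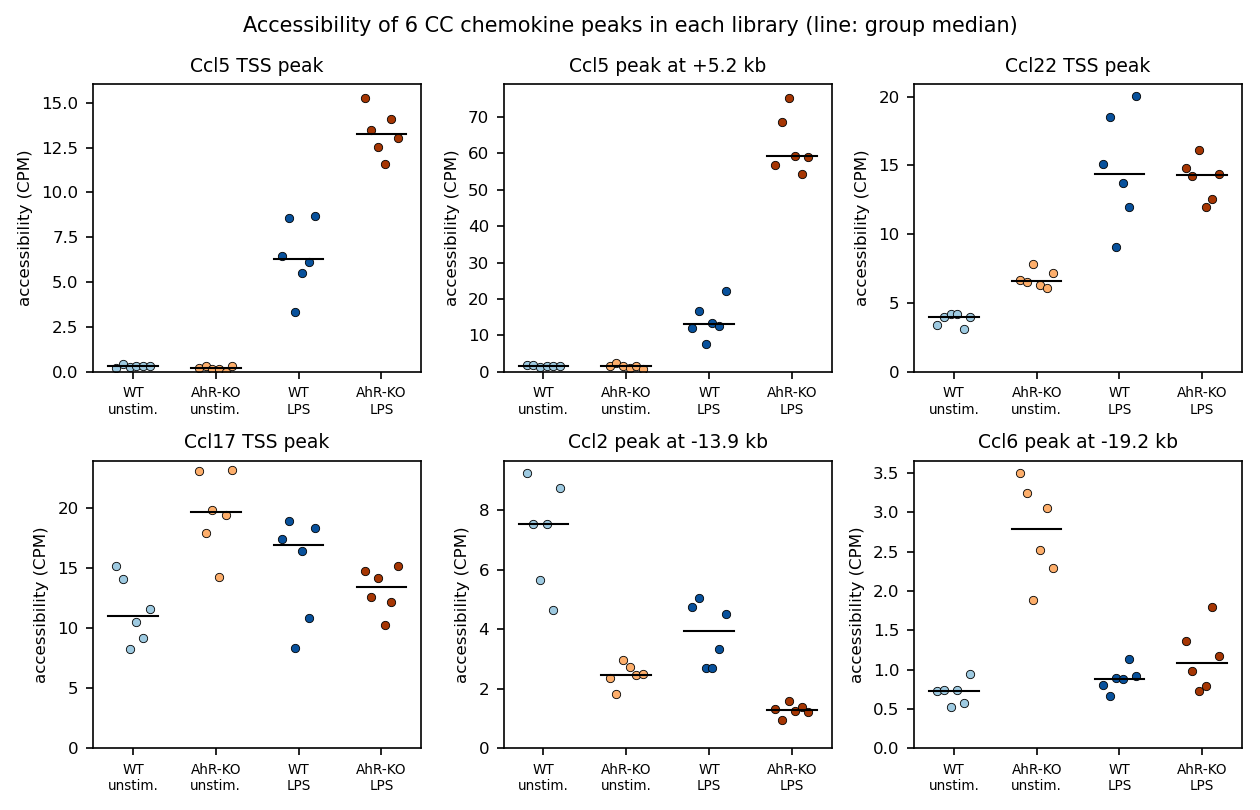
Accessibility in CPM (y axis) of each library in the 4 groups (x axis) at 6 peaks, with a line at the group median. At Ccl5 the 6 AhR-KO LPS libraries lie above all others, at Ccl22 and Ccl17 unstimulated AhR-KO lies above or mostly above unstimulated WT, at Ccl2 -13.9 kb AhR-KO lies below WT in both treatments, and at Ccl6 -19.2 kb unstimulated AhR-KO lies above the other groups.

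Levels were compared between genes per kb of peak, since peaks differ in length, and in unstimulated WT the Ccl2 promoter was the most open of the 10 and that of Ccl5 the least. The TSS peak held 29.2 ± 1.84 CPM per kb (SD, n = 6) for Ccl2, 14.5 ± 1.25 for Ccl12, 13.5 ± 3.20 for Ccl17, 11.9 ± 1.08 for Ccl3, 11.4 ± 0.369 for Ccl6, 8.59 ± 0.624 for Ccl9, 8.18 ± 0.810 for Ccl4, 3.69 ± 0.713 for Ccl7, 3.35 ± 0.389 for Ccl22 and 0.624 ± 0.161 for Ccl5. Among neighbours in this order, the ranges of Ccl12 and Ccl17, of Ccl17 and Ccl3, of Ccl3 and Ccl6, of Ccl9 and Ccl4 and of Ccl7 and Ccl22 overlapped. With LPS the order changed. In WT LPS, Ccl17 (17.7 ± 5.14), Ccl2 (16.2 ± 0.508), Ccl4 (15.01 ± 1.82), Ccl3 (13.9 ± 1.54), Ccl5 (12.9 ± 4.05) and Ccl22 (12.9 ± 3.56) overlapped each other, and in AhR-KO LPS the Ccl5 promoter, at 26.7 ± 2.56, was the highest of the 10, followed by Ccl2 at 20.7 ± 4.10, with which it overlapped.

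Peaks called by the authors in each library on its own gave a second view of presence. Presence meant that a called peak overlapped the consensus peak, in part or in whole. Of the 81 consensus peaks, 29 were overlapped in all 24 libraries. A further 6, among them the Ccl5 TSS peak, were overlapped in 0 of 12 unstimulated and 12 of 12 LPS libraries. All 6 libraries of a group had a called peak at 33 of the 81 in WT and 41 in AhR-KO before LPS, and at 51 and 49 with LPS. Since the consensus set is the union of these lists, and since totals differed between the groups, these counts are a description.

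In the middle 300 bases, NF-kB matches were found in 10 of the 81 peaks (12.3%), beside 4.88% of 174106 tested peaks on the chromosomes searched, and ISRE cores in 7 (8.64%) beside 4.60%. The other shares were 17 (21%) beside 15.8% for C/EBP, 14 (17.3%) beside 18.1% for AP-1, 9 (11.1%) beside 16.3% for GCGTG and 5 (6.17%) beside 7.49% for PU.1. Motifs can overlap each other, and a match is a run of letters and not a bound site. Among the 28 peaks that were higher with LPS in both genotypes, NF-kB was matched in 6 and AP-1 in 10, and among the other 53 peaks in 4 and 4. Over all tested peaks, 9.69% of those higher in both genotypes held NF-kB and 38.6% AP-1, against 3.61% and 12.7% of the rest, so the same lean was present outside the family. RefSeq promoter windows of 300 bases were found for 6 of the 10 genes (Ccl3, Ccl6, Ccl9, Ccl12, Ccl17 and Ccl22), and GCGTG was matched in those of Ccl17 and Ccl22, beside 32.4% of 32851 promoters. The Ccl9 window held an NF-kB and an AP-1 match, beside 4.51% and 7.81% of promoters, and C/EBP, PU.1 and ISRE cores, in 10.8%, 3.20% and 3.44% of promoters, were matched in 0 of the 6.

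The 8 other CC chemokine genes examined by the same rule (Ccl1, Ccl8, Ccl11, Ccl20, Ccl24, Ccl25, Ccl26 and Ccl28) held 45 peaks that were not already counted. LPS gave 15 higher and 3 lower DARs in WT (40% of the 45, beside 47.0% of all tested peaks) and 15 higher and 6 lower in AhR-KO (46.7% beside 48.8%). AhR-KO gave 3 higher and 3 lower DARs without LPS (13.3% beside 22.6%), 5 higher and 3 lower with LPS (17.8% beside 26.5%), and the interaction 1 higher and 0 lower (2.22% beside 10.4%), all below the share of all tested peaks. Ccl1, the ligand of CCR8, held 8 of the 15 higher LPS DARs in each genotype, and both peaks of Ccl20, the ligand of CCR6, rose with LPS, in WT by 1.12 and 1.81 and in AhR-KO by 1.23 and 1.34 on the log2 scale.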

How the data were processed

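ATAC-seq reads of the 24 libraries were processed by the authors with the nf-core atacseq pipeline on mm10. MACS2 called broad peaks in each library on its own, these were merged across libraries into consensus peaks, and featureCounts 2.0.1 counted read pairs per peak. The deposited table holds raw counts, in which a pair was given to every peak that held at least 0.2 of it. The deposited peak lists give the −log10 q-value and the fold enrichment of each peak, of which presence and the −log10 q-value were used here. How Tn5 insertion sites and reads mapping to several places were handled is not given in the sources used here.

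Peaks were given to the nearest of the 10 genes by GENCODE coordinates and counted from 1. The test on counts was the quasi-likelihood test of edgeR 4.0.16, run in R 4.3.3 (filterByExpr by group, TMM, glmQLFit with robust estimation, group as the only term, all 24 libraries, two-sided), with Benjamini-Hochberg adjustment over all 174193 tested peaks, and SE was taken as the size of the log2 fold change divided by the square root of F. No pair of libraries agreed within sampling noise. P-values measure the spread between cultures of a single experiment. Peaks named were the TSS peak of each gene, those with the smallest p per comparison, direction and gene, and further peaks chosen after their values were seen. The members, the gene lists and the tests were chosen with earlier results of these data known. Alternatives were DESeq2 1.42.0, RLE scaling, no filter on low counts, a replicate block, the compared groups alone, other fold thresholds and windows, and each library left out. Scripts were tested on simulated data. Sequences were read with pysam 0.24.0, and motifs were searched in the 174106 tested peaks on the chromosomes of the assembly. RefSeq promoter entries were found for 6 of the 10 genes. Some receptor genes are not reported here.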

Additional observations from a re-analysis of the deposited data

Results flagged for a closer look

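In the groups of 6 libraries, 12 of 324 tested groups (81 peaks in 4 groups) had 1 library that stood apart from the rest by Dixon's test, while chance alone flags about 1 in 20, or 16.2. At the CCR2 ligands these were AhR-KO unstimulated replicate 5 at Ccl2 -12.3 kb, with 33.28 CPM beside 30.46 in the next library, WT unstimulated replicate 5 at Ccl2 -5.3 kb, with 1.28 beside 1.059, and WT LPS replicate 6 at the Ccl12 TSS peak, the lowest with 12.68 beside 14.24. At Ccl3 and Ccl4 they were WT unstimulated replicate 3 at Ccl3 +9.1 kb (22.34 beside 19.31 CPM), AhR-KO unstimulated replicate 2 at Ccl3 +2.3 kb (1.515 beside 0.7629), and at Ccl4 -3.6 kb both AhR-KO unstimulated replicate 1 (6.452 beside 5.298) and AhR-KO LPS replicate 5 (5.822 beside 4.515). At the intronic repeat of Ccl5 (+2.3 kb) AhR-KO LPS replicate 5 held 8.061 CPM beside 5.345, and at the Ccl6 TSS peak WT unstimulated replicate 1 was the lowest with 13.93 beside 14.86. At the CCR4 ligands, WT unstimulated replicate 6 held 0.6438 CPM at Ccl17 +16.1 kb beside 0.4653, AhR-KO LPS replicate 3 held 17.16 at Ccl22 -10.9 kb beside 12.11, and AhR-KO unstimulated replicate 4 was the lowest at Ccl22 +8.9 kb with 0.04345 beside 0.2634. Dixon's test seeks 1 library apart, so it can miss libraries low together, as WT LPS replicates 3 and 5 were at the Ccl22 TSS peak.

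The genotype effect differed between unstimulated and LPS cultures by the interaction test of edgeR at 11 peaks. It was higher with LPS at Ccl7 -3.7 kb (0.79 on the log2 scale, adjusted p 0.00559), Ccl5 +5.2 kb (2.28, adjusted p 0.000356) and the Ccl5 TSS peak (1.64, adjusted p 0.0289). It was lower with LPS at Ccl3 +16.5 kb (-0.70, adjusted p 0.0465), Ccl6 +9.7 kb (-0.88, adjusted p 0.000442), Ccl6 -18.0 kb (-0.82, adjusted p 0.0219), Ccl6 -19.2 kb (-1.55, adjusted p 0.000374), Ccl9 -2.4 kb (-0.68, adjusted p 0.000383), Ccl17 -2.4 kb (-0.82, adjusted p 0.04), the Ccl17 TSS peak (-0.96, adjusted p 0.0133) and the Ccl22 TSS peak (-0.87, adjusted p 0.00247). The call at Ccl3 +16.5 kb was lost with DESeq2 (adjusted p 0.0561) and without any of 15 libraries.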

How the results depend on the processing

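Over 405 log2 fold changes (81 peaks, 5 comparisons) the alternatives gave 11655 values, of which 11494 stayed on the same side of the thresholds, 105 lost a call, 56 gained one and 0 changed sign as a call. The counts moved with the fold threshold and the window. At a minimum fold of 2, AhR-KO against WT gave 1 lower and 3 higher DARs without LPS and 5 higher with LPS, LPS gave 5 lower in WT and 9 lower in AhR-KO, and the interaction 1 lower. With no fold threshold, AhR-KO against WT gave 6 lower and 27 higher before LPS, and after it 5 lower and 32 higher, and the interaction 13 lower and 5 higher. Within 5 kb (36 peaks) the counts were 0 lower and 9 higher for AhR-KO without LPS, 0 and 7 with LPS, 5 and 16 for LPS in WT, 4 and 18 in AhR-KO, and 5 lower for the interaction. Within 50 kb (120 peaks) they were 23 higher without LPS and 2 lower with LPS for AhR-KO against WT. These windows hold fewer or more peaks. Leaving out each library gave 1 to 3 lower and 12 to 15 higher for AhR-KO without LPS, 1 to 2 and 13 to 18 with LPS, 11 to 14 and 29 to 31 for LPS in WT, 14 to 19 and 31 to 34 in AhR-KO, and 6 to 9 and 2 to 4 for the interaction. The lower count without LPS was 1 without AhR-KO unstimulated replicate 3, and the lower count with LPS was 2 without WT LPS replicates 3 or 5 or AhR-KO LPS replicates 3 or 5. The compared groups alone could not be fitted for the interaction. Same-numbered libraries correlated at 0.0486 to 0.3433 between WT unstimulated and WT LPS and at 0.0088 to 0.2095 between the AhR-KO groups, each library correlating best with its own number in 4 and 3 of 6, and at -0.1438 to 0.0615 and -0.1267 to 0.2677 between genotypes without and with LPS (2 and 1 of 6). Over 0.1 were 5 of 6 pairs within WT and 3 of 6 within AhR-KO, not every pair, and no source used here says whether same-numbered libraries share an animal. With the replicate block the counts were 2 and 14, 1 and 16, 14 and 30, 17 and 34, and 8 and 3, with 1 call lost (Ccl6 +6.2 kb, 0.54) and 1 gained (Ccl12 -18.3 kb with LPS in WT, -0.59). Depth limits the unstimulated Ccl5 promoter, with 28 to 35 read pairs per group.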

Other observations

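Peaks of genes of receptors that bind CC chemokines were taken by the same 20 kb rule. Of all tested peaks, LPS made 25.4% higher and 21.6% lower DARs in WT, and 27.3% and 21.5% in AhR-KO. Between genotypes, 9.95% were higher and 12.6% lower in AhR-KO without LPS, and 13.4% and 13.1% with LPS. In the interaction 4.58% were lower. Ccr7, the receptor that guides dendritic cells to lymph nodes, had 11 of 12 peaks higher with LPS in WT and 10 in AhR-KO, and 5 lower in AhR-KO than in WT with LPS. Ccr2, the receptor of Ccl2, Ccl7 and Ccl12, had 4 of 5 peaks lower with LPS in each genotype. Ackr2, a decoy receptor that removes inflammatory CC chemokines, had 3 of 12 peaks higher in AhR-KO without LPS and 6 lower with LPS, and 8 of its peaks were lower in the interaction test of edgeR. At Ccr6, the receptor of Ccl20, 5 of 13 peaks were lower in AhR-KO without LPS and 4 with LPS, with log2 fold changes down to -3.45 and -3.72. Ccr4, the receptor of Ccl17 and Ccl22, had 3 of 8 peaks lower in AhR-KO in each treatment.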
